A study of Mus musculus with 15 samples.

Results

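In haematopoietic stem cells (HSC) sorted from mouse bone marrow, age and nicotinamide riboside treatment were compared here for 9 genes of the Hox system: Hoxa5, Hoxa7, Hoxa9 and Hoxa10 of the HoxA cluster, Hoxb3, Hoxb4 and Hoxb5 of the HoxB cluster, and the cofactors Meis1 and Pbx3. The genes were taken from a list of names, and all 9 have a row among the 16154 genes of the deposited count table. The 15 libraries came from individual C57BL/6 mice labelled female, 5 in each group, though young replicates 1 and 5 held Y-linked transcripts (given below). The young group was 6 to 12 weeks old and drank water without the agent. The aged group was 20 to 24 months old and also drank water without it. The third group, written aged + NR, was of that same age and received nicotinamide riboside (NR, a vitamin B3 precursor of NAD) at 3 mg/ml in the drinking water for 2 months. The labels name no transgene or engineered allele in any group. The question put to the age comparison was which members differ in aged HSC, and the question put to NR was whether treated aged HSC differ from untreated aged HSC and from young HSC.

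Hox genes encode homeodomain transcription factors that lie in clusters and are switched on along the cluster in development. On DNA, HOX proteins bind with cofactors of the TALE class of homeodomain proteins, PBX and MEIS, which sharpen the choice of site. In blood, Hox genes of the A and B clusters are active in stem and progenitor cells and are shut down as cells mature. HOXA9 and MEIS1 maintain stem cells and drive acute leukaemia when they are kept on, PBX3 is a partner of both in that disease, HOXB4 expands stem cells when overexpressed, and Hoxb5 is used as a reporter gene for long-term HSC.

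Of 39 mouse Hox genes, 15 have a row, 7 in HoxA and 8 in HoxB. In GRCm38, Hoxa5 (chr6:52201754-52204587), Hoxa7 (chr6:52214491-52221854), Hoxa9 (chr6:52223100-52231089) and Hoxa10 (chr6:52231197-52240854) are protein-coding genes on the minus strand, with Hoxa6 between Hoxa5 and Hoxa7. Hoxb5 (chr11:96303336-96306121), Hoxb4 (chr11:96318267-96321638) and Hoxb3 (chr11:96323326-96347930) follow each other on the plus strand. Meis1 (chr11:18879817-19018985) and Pbx3 (chr2:34171457-34373142) are on minus strands outside the clusters. The reads came from near the 3′ ends of poly(A) RNA and were counted over exons, and the strand setting of the counting is not given in the sources used here. Some members share exon bases with a gene on the other strand: 52.9% of the Hoxb3 exon bases lie under Hoxb3os, 20.4% of those of Hoxa7 under Hoxaas3, 8.51% of those of Meis1 under Gm16140 and 3.59% of those of Hoxb5 under Hoxb5os. Meis1 also shares 9.77% of its exon bases with Gm37818 on its own strand. For these genes reads of the partner could be counted in part with the member.

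Start-site windows of 300 bases (250 before the start and 50 after it) from RefSeq on GRCm38.p6 were read to show the sequence at which these genes begin. The windows of Hoxa9 and Hoxa5, both members that passed a test below, are printed with that of Hoxb8, a neighbouring gene chosen after its values were seen. Capitals mark matches, on either strand, to TGATNNAT (a HOX-PBX site), TGACAG (a MEIS site) or TTTATTG (a CDX site, bound by upstream regulators of Hox genes).
Hoxa9, chr6:52227321-52227620, minus strand: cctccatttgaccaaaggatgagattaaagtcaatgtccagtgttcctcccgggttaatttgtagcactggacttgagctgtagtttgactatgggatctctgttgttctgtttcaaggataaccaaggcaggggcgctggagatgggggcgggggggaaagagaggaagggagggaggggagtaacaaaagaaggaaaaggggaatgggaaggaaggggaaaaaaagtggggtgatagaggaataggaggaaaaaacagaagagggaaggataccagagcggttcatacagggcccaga
Hoxa5, chr6:52204538-52204837, minus strand: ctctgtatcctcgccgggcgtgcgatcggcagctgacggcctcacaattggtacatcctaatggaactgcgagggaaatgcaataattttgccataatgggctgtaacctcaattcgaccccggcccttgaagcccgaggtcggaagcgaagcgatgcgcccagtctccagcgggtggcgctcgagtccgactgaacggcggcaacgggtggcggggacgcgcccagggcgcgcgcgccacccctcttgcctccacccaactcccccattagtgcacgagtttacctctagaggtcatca
Hoxb8, chr11:96281655-96281954, plus strand: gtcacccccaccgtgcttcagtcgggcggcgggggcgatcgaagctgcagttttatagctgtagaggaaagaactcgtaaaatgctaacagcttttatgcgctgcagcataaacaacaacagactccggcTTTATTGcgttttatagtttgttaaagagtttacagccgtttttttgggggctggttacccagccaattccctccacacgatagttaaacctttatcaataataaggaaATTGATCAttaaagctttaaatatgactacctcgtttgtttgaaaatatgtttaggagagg
The Hoxa9 and Hoxa5 windows hold no match to the 3 motifs, and that of Hoxb8 holds 1 match to TTTATTG and 1 to TGATNNAT, the latter on the other strand, without overlap between them. Over all 32851 start-site windows of the same length, 8.85% hold TGATNNAT, 19.2% hold TGACAG and 4.6% hold TTTATTG. The Hoxa9 window lies inside the gene, at the start of a shorter transcript. A match is a description of the letters and not evidence of binding.

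Library totals were 2122221 to 3631395 counts in young, 764119 to 13318989 in aged and 2486399 to 3595384 in aged + NR. Aged replicate 2 was the shallowest and aged replicate 3 the deepest, and 3 counts correspond to 3.89 and 0.254 CPM (counts scaled by library size) in them. All 10 HSC markers followed (among them Kit, Slamf1 and Procr) were measured, at 0.151% to 0.206% of counts in every library. Within that sum 3 of the 10 were higher in aged than in young by edgeR, where 9.68% of all genes were. These were Ly6a (131 to 301 CPM), Slamf1 (42.7 to 76.5 CPM) and Procr (68.7 to 166 CPM). Against aged, aged + NR was lower in Slamf1 (53.7 CPM, adjusted p 0.0288 by edgeR), where 4.18% of all genes were lower. It was higher in Tie1 (67.9 to 83.9 CPM, adjusted p 0.0493), where 3.88% were higher. Against young, 2 of the 10 were higher in aged + NR, where 2.56% of all genes were. Markers of mature granulocytes, macrophages, B cells, T and NK cells and erythroid cells, 26 of 28 with a row, together took 0.0366% to 0.867% of counts in young, 0.634% to 1.04% in aged and 0.0296% to 0.0916% in aged + NR. The mice are labelled female, yet 4 Y-linked genes summed to 104 CPM in young replicate 1 and 108 CPM in young replicate 5, against 0.757 to 3.16 CPM in the other 13 libraries.

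Below, CPM were scaled with TMM effective library sizes, log2 fold changes (with SE) come from 1 edgeR quasi-likelihood fit over the 15 libraries, and adjusted p-values (Benjamini-Hochberg over all 16154 genes, threshold 0.05) are two-sided. Values per library stand in the order of replicates 1 to 5. In RNA from sorted bulk cells, fewer cells of a type and less RNA per cell cannot be told apart.

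In aged against young HSC, Hoxb5 and Pbx3 were higher and Hoxa9 was lower, 3 of 9 members, where 19.3% of all genes passed (9.68% higher and 9.63% lower). The median log2 fold change of the 9 members was 0.10, against -0.03 over all genes. Between aged + NR and aged, 1 of 9 members passed, Hoxa5, which was lower, where 8.07% of all genes passed (3.88% higher and 4.18% lower) and the member median was -0.000247 against 0.02 over all genes. Against young, aged + NR libraries were again higher in Hoxb5 and Pbx3 and lower in Hoxa9, 3 of 9 where 4.47% of all genes passed (2.56% higher and 1.91% lower), with a member median of 0.01 against -0.00461. Both age comparisons use the same young libraries. In all, 8 of 9 members had 10 or more counts in each of the 15 libraries, and Hoxb3 did not.

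Hoxa9, the HoxA gene most tied to stem cell maintenance and leukaemia, was lower in aged HSC with and without NR. Young libraries stood at 164, 226, 141, 176 and 149 CPM (171 ± 33.3, SD, n = 5). Aged libraries stood at 133, 118, 147, 106 and 117 CPM (124 ± 16.1), and aged + NR libraries at 110, 142, 121, 131 and 119 CPM (125 ± 12.0). The ranges met only through young replicate 3, which lay under aged replicate 3 and aged + NR replicate 2. The difference of aged from young was -0.46 on the log2 scale (SE 0.13), 1.37-fold lower, with an adjusted p of 0.0173 by edgeR. That of aged + NR from young was -0.46 (SE 0.13), with an adjusted p of 0.0448. Between aged + NR and aged it was -0.000247, with a 95% interval of -0.27 to 0.27. The age difference passed in all 26 alternative analyses. The Hoxa9 call in aged + NR against young held in 10 of 26 and was lost when any 1 of 10 libraries was left out (young 1, 2 or 4, aged 1, 2 or 5, aged + NR 1, 3, 4 or 5), with adjusted p up to 0.113.

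Hoxa5, a homeodomain gene of the middle of the cluster that acts in myeloid and erythroid progenitors, was the member with the largest estimated difference between aged + NR and aged. Young libraries held 45.3, 25.7, 30.1, 39.5 and 42.1 CPM (36.5 ± 8.28). Aged libraries held 67.3, 54.5, 54.3, 49.8 and 47.8 CPM (54.8 ± 7.61), and aged + NR libraries 20.3, 45.0, 30.7, 48.6 and 26.4 CPM (34.2 ± 12.1). All 5 aged libraries lay above all 5 young ones, and in aged + NR only replicate 4 reached into the aged range. The aged + NR level was 1.61-fold lower than the aged level (log2 -0.68, SE 0.21), with an adjusted p of 0.0460 by edgeR. This call held in 10 of 26 alternatives. It was lost with library totals (log2 -0.55, adjusted p 0.112), with DESeq2 size factors (-0.67, 0.0535), when a minimum of 10 counts was asked of each library (-0.61, 0.0733), and when any 1 of 10 libraries was left out (young 4 or 5, any aged library, aged + NR 1, 3 or 5), with adjusted p up to 0.103. Aged against young gave 0.58 (SE 0.21, 95% interval 0.15 to 1.01), with an adjusted p of 0.0547 over the threshold, which fell under it in 9 of 26 alternatives. Aged + NR against young gave -0.11 (-0.55 to 0.33). The summed share of mature blood markers was also lower in aged + NR (0.0296% to 0.0916%) than in aged (0.634% to 1.04%). Granulocyte, macrophage, B cell and erythroid sums had lower means in aged + NR than in aged. That of T and NK cells had a higher mean, 0.0105% in aged + NR against 0.00839% in aged. The part of mature cells in the Hoxa5 difference was not tested. Markers of progenitors (8 genes) summed to 0.00939% to 0.0167% of counts in aged + NR against 0.0386% to 0.0755% in aged. Of the 8, 4 were lower by edgeR, where 4.18% of all genes were: Mpo (265 to 15.3 CPM, adjusted p 0.0126), Elane (169 to 7.07 CPM, 0.0117), Cd48 (24.2 to 3.50 CPM, 0.00776) and Irf8 (33.2 to 5.14 CPM, 0.0280). The other 4 did not pass. Of those, Flt3 (3.24 to 5.46 CPM), Cd34 (73.6 to 78.5 CPM) and Cebpa (0.622 to 0.903 CPM) were estimated higher and Dntt (2.02 to 0 CPM) lower. The part of progenitors in the Hoxa5 difference was not tested either.

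Hoxa7 and Hoxa10, the neighbours on either side of Hoxa9, passed in none of the 3 comparisons. Hoxa7 stood at 48.8, 50.2, 22.5, 37.0 and 41.5 CPM in young, 27.3, 36.3, 26.1, 35.4 and 37.4 in aged, and 27.97, 28.6, 33.8, 25.9 and 36.5 in aged + NR. Young replicate 3 was the lowest of all 15 libraries for Hoxa7, while 3 young libraries lay above every aged and aged + NR library, and young replicate 4 lay inside the aged range. Its log2 difference was -0.32 in aged against young (95% interval -0.71 to 0.06, adjusted p 0.230 by edgeR) and -0.39 in aged + NR against young (-0.78 to -0.00459, adjusted p 0.273). Hoxa10, which acts in haematopoietic progenitors and in myeloid development, stood at 104, 67.1, 63.8, 71.8 and 89.3 CPM in young, 97.0, 66.2, 120, 87.3 and 83.5 in aged, and 70.1, 108, 98.4, 65.0 and 59.1 in aged + NR. The 3 groups overlapped over most of their range. Log2 differences of Hoxa10 were 0.22 (-0.16 to 0.60), -0.21 (-0.58 to 0.17) and 0.01 (-0.37 to 0.39) in aged against young, aged + NR against aged, and aged + NR against young.

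**Figure D1:**
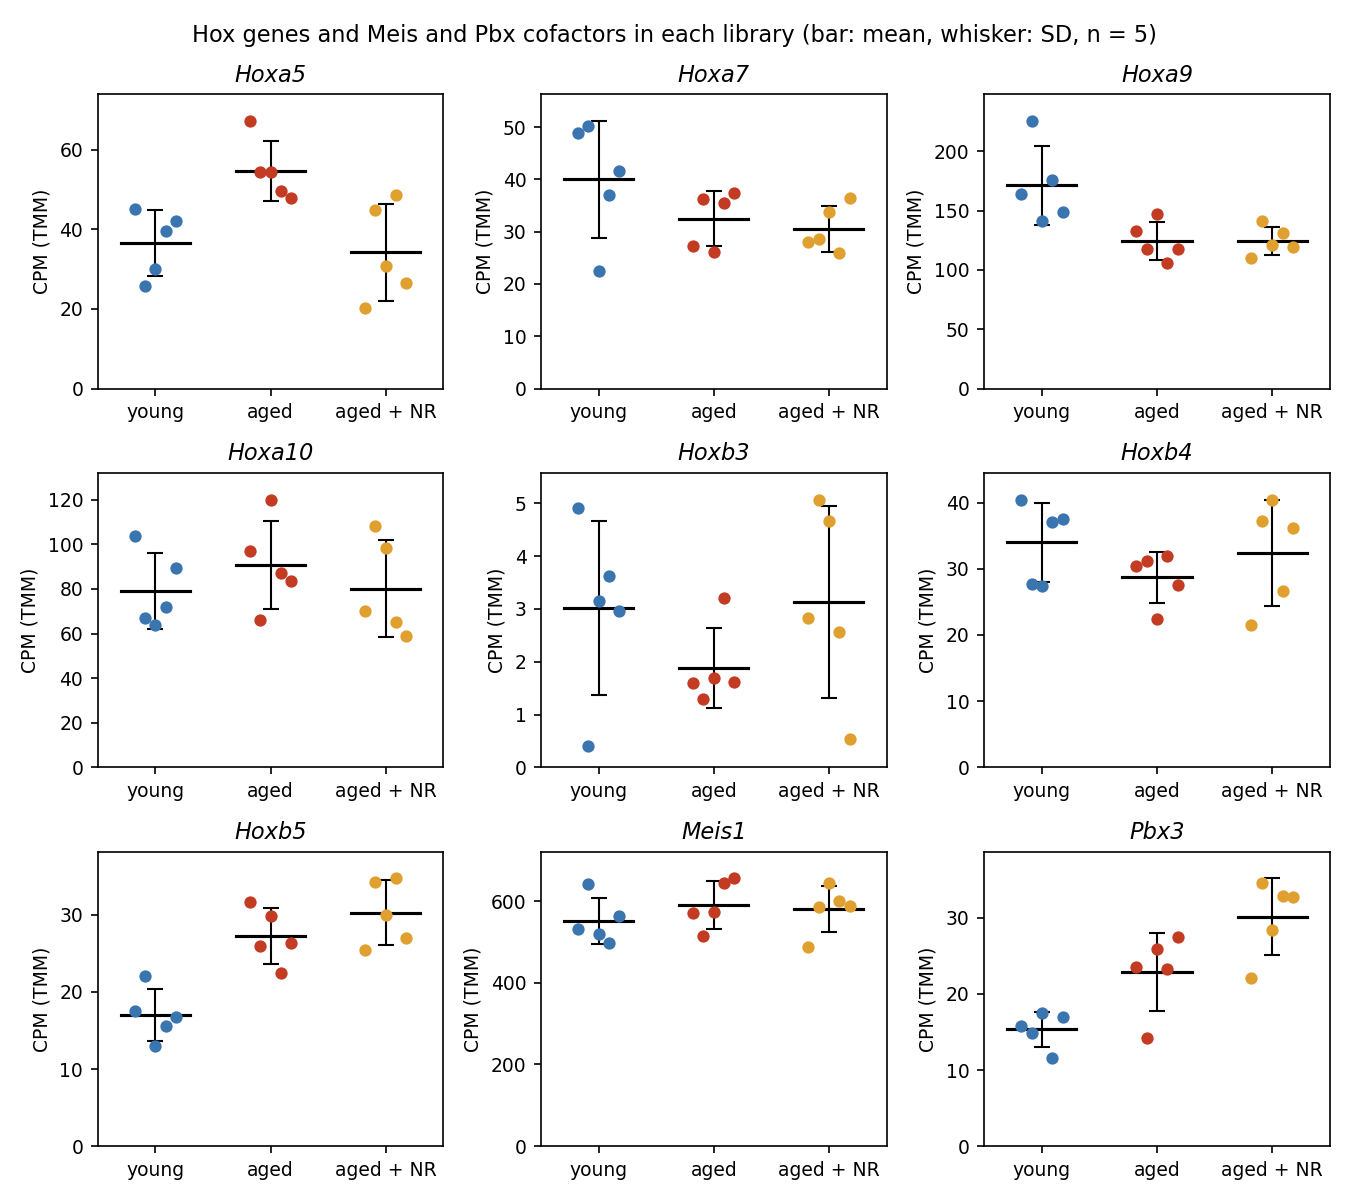
Expression of the 9 members in each library in CPM (y axis, linear from 0) for young, aged and aged + NR HSC, with 1 point per library, a bar at the mean and a whisker of 1 SD (n = 5). Young libraries of Hoxb5 lie between 13.0 and 22.1 CPM, under all aged (22.4 to 31.6) and aged + NR (25.4 to 34.7) libraries, whereas the 3 groups of Meis1 overlap.

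Among the HoxB members, Hoxb5, the long-term HSC reporter gene, was higher in both aged groups than in young. Young libraries held 17.5, 22.1, 13.0, 15.6 and 16.7 CPM (17.0 ± 3.32). Aged libraries held 31.6, 25.9, 29.8, 22.4 and 26.3 CPM (27.2 ± 3.61), and aged + NR libraries 25.4, 34.3, 29.9, 34.7 and 27.0 CPM (30.3 ± 4.19). Every aged and every aged + NR library lay above every young library, the closest being young replicate 2 at 22.1 and aged replicate 4 at 22.4 CPM. Hoxb5 was 1.61-fold higher in aged than in young (log2 0.69, SE 0.16, adjusted p 0.00602 by edgeR) and 1.77-fold higher in aged + NR than in young (0.83, SE 0.16, adjusted p 0.00388). Aged + NR against aged gave 0.14, with an interval of -0.18 to 0.46. Both calls held in 25 of 26 alternatives and were lost when all libraries were thinned to the smallest total (adjusted p 0.0801 and 0.328). Without overlap between the libraries of the groups, 2 members stood higher in aged than in young (Hoxa5 and Hoxb5), where 12.4% of all genes were separated and 6.86% in that direction. Likewise 2 stood higher in aged + NR than in young (Hoxb5 and Pbx3), where 4.74% were separated and 2.8% in that direction, and 0 were separated between aged + NR and aged, where the share was 8.6%.

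Hoxb4, known for expanding HSC when overexpressed, passed in no comparison. It stood at 40.4, 27.7, 27.4, 37.0 and 37.5 CPM in young, 30.3, 31.1, 22.5, 32.0 and 27.5 in aged and 21.5, 37.3, 40.4, 26.7 and 36.2 in aged + NR. The groups overlapped throughout, and the differences were -0.27 (95% interval -0.64 to 0.10), 0.19 (-0.18 to 0.56) and -0.08 (-0.45 to 0.29) on the log2 scale, in the order aged against young, aged + NR against aged and aged + NR against young. Hoxb3, a paralogue of the anterior end of the cluster, was near the limit of detection, with 1 to 14 counts in young, 1 to 20 in aged and 2 to 17 in aged + NR libraries. Its CPM were 4.91, 0.402, 3.14, 3.63 and 2.97 in young, 1.59, 1.30, 1.69, 3.20 and 1.61 in aged and 2.82, 5.07, 4.67, 2.56 and 0.545 in aged + NR. At this depth Hoxb3 intervals were wide, from -1.71 to 0.46 for aged against young and from -0.42 to 1.73 for aged + NR against aged. The direction and size of any Hoxb3 change were thus not settled.

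The other Hox genes with a row were 8: Hoxa2, Hoxa3, Hoxa6, Hoxb2, Hoxb6, Hoxb7, Hoxb8 and Hoxb9. Of the 15 Hox genes, 5 were higher and 1 lower in aged than in young (19.3% of all genes passed), 1 was lower in aged + NR than in aged (8.07% of all genes), and 4 were higher and 1 lower in aged + NR than in young (4.47% of all genes). All 16154 rows of the deposited table exceed 2 CPM (by library totals) in 2 or more libraries, the mark of the filter that made it. The young libraries alone met this for 12 of the 15, not for Hoxb7, Hoxb8 and Hoxb9, whose rows rest on the aged groups. A higher level of these genes in the aged groups was thus in part fixed by the filter. Their place in the count of 5, and that of Hoxb7 and Hoxb8 in the count of 4, is no separate evidence. The aged libraries alone also met the mark for 12, not for Hoxb3, Hoxa3 and Hoxa6. Hoxb6, Hoxb7, Hoxb8 and Hoxb9, which lie in a row on the 5′ side of Hoxb5 (chr11:96271457-96301569) and are homeodomain genes of the more posterior part of the cluster, were all higher in aged than in young. Hoxb6 rose from 2.93 ± 0.941 CPM in young to 15.1 ± 2.63 in aged, 4.94-fold (log2 2.30, SE 0.26, adjusted p 4.4e-06 by edgeR). Its young libraries held 4.21, 1.61, 2.69, 2.90 and 3.24 CPM and its aged libraries 16.6, 18.2, 15.04, 11.2 and 14.3 CPM, well apart. Its aged + NR libraries, at 13.28, 11.3, 7.78, 10.6 and 8.17 CPM, were above all young libraries and overlapped with aged (log2 -0.53, interval -0.99 to -0.06, adjusted p 0.148).

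Hoxb7, Hoxb8 and Hoxb9 were close to the floor in young HSC, with totals of 10, 12 and 10 counts over the 5 young libraries. Their rows rest on the aged groups, so a level above young was in part fixed by the filter. The p-values against young carry that limit. Hoxb7 held 1.05, 0.804, 0, 1.09 and 0.539 CPM in young, 7.23, 2.59, 6.42, 5.87 and 3.82 in aged and 4.24, 5.96, 2.72, 5.48 and 4.08 in aged + NR. Hoxb8 held 1.05, 0.402, 0.449, 0.726 and 1.35 CPM in young, 10.1, 5.19, 4.82, 6.40 and 7.03 in aged and 3.67, 6.86, 2.33, 1.83 and 4.36 in aged + NR. Both genes were above the young range in every aged and aged + NR library. Fitted log2 changes in aged against young were 2.91 (SE 0.45, adjusted p 0.000182) for Hoxb7 and 2.99 (SE 0.44, adjusted p 0.000115) for Hoxb8 by edgeR, and in aged + NR against young 2.61 (adjusted p 0.00165) and 2.17 (adjusted p 0.00827). Without the 2 young libraries that held Y-linked transcripts, the Hoxb8 changes were 3.61 and 2.79.

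Hoxb9 held 0.351, 2.41, 0, 0.363 and 0.539 CPM in young, 7.80, 7.78, 5.75, 5.16 and 5.22 in aged and 1.98, 3.28, 3.50, 1.83 and 0.545 in aged + NR. It was 1 of 15 Hox genes in which all aged + NR libraries lay below all aged libraries, where 4.95% of all genes were separated in that direction. The fitted change was 3.05 (SE 0.56, adjusted p 0.000904 by edgeR) in aged against young, a direction in part fixed by the filter. In aged + NR against aged the change was -1.49 (SE 0.47, 95% interval -2.47 to -0.51, adjusted p 0.0545), past the threshold in 7 of 25 alternatives. Aged + NR against young gave 1.56 (adjusted p 0.173). Young replicate 2 held 6 of the 10 young counts of Hoxb9, and without it the change was 4.06 in aged against young and 2.57 (adjusted p 0.0215) in aged + NR against young. In aged + NR against aged 0 of these 4 genes passed by edgeR, and 3 had an unadjusted p under 0.05, as did 25.1% of all genes.

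Summed over Hoxb6 to Hoxb9, the level was 3.14 to 6.67 CPM in young, 28.6 to 41.8 in aged and 16.3 to 27.4 in aged + NR. The sums of the 3 groups did not overlap. These genes had each been seen to be higher in aged than in young, so their sum is no separate evidence. Taken singly, 0 of the 4 passed between aged + NR and aged by edgeR. Only 1 of the 4, Hoxb9, was separated there, where 4.95% of all genes were separated in that direction. The rows of Hoxb7, Hoxb8 and Hoxb9 rest on the aged groups, so the gap from young was in part fixed by the filter. Summed over Hoxb2 to Hoxb5, on the other side of the cluster, the level was 45.8 to 69.8, 59.3 to 69.4 and 57.9 to 85.2 CPM, with overlap of all 3. The summed share of mature blood markers was 0.634% or more in all aged libraries and 0.0916% or less in all aged + NR libraries. Progenitor markers took 0.0386% to 0.0755% of counts in aged and 0.00939% to 0.0167% in aged + NR. The part of mature cells and progenitors in the differences between the 3 groups was not tested.

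**Figure D2:**
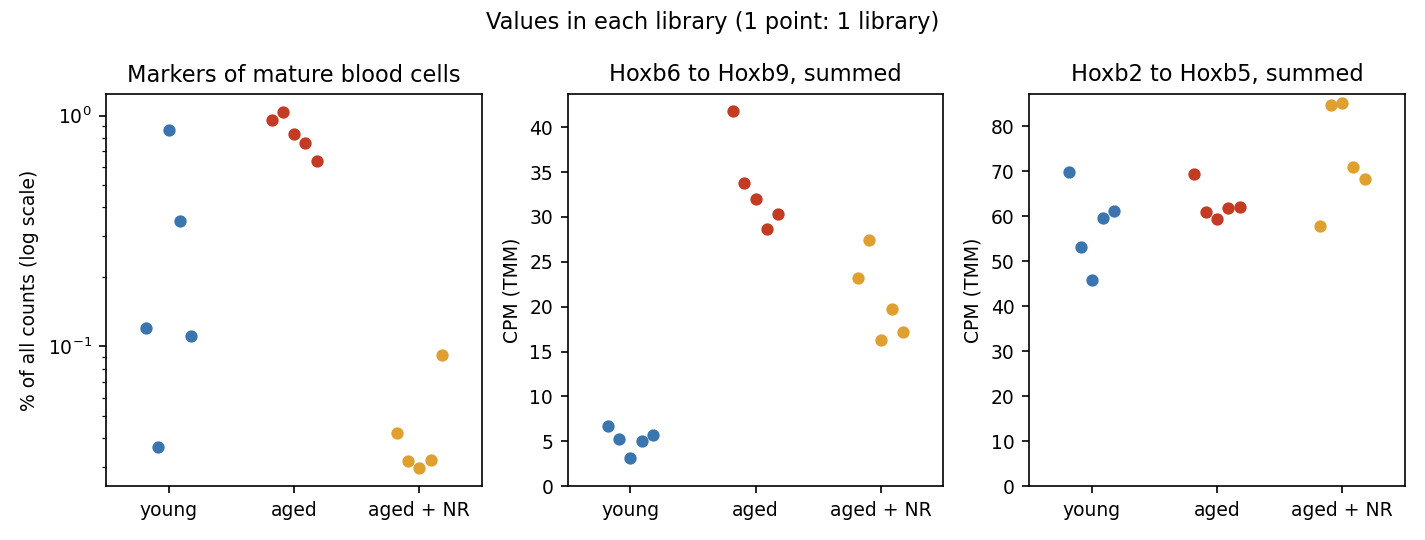
The share of counts from markers of mature blood cells (left, %, log scale), and the summed CPM of Hoxb6 to Hoxb9 (middle) and of Hoxb2 to Hoxb5 (right), with 1 point per library. In the middle panel young libraries lie at 3.14 to 6.67 CPM, aged at 28.6 to 41.8 CPM and aged + NR at 16.3 to 27.4 CPM. Taken singly, only 1 of these 4 genes, Hoxb9, was separated between aged + NR and aged. Marker shares in the left panel are 0.0366% to 0.867% in young, 0.634% to 1.04% in aged and 0.0296% to 0.0916% in aged + NR. A link between the panels was not tested.

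**Figure D3:**
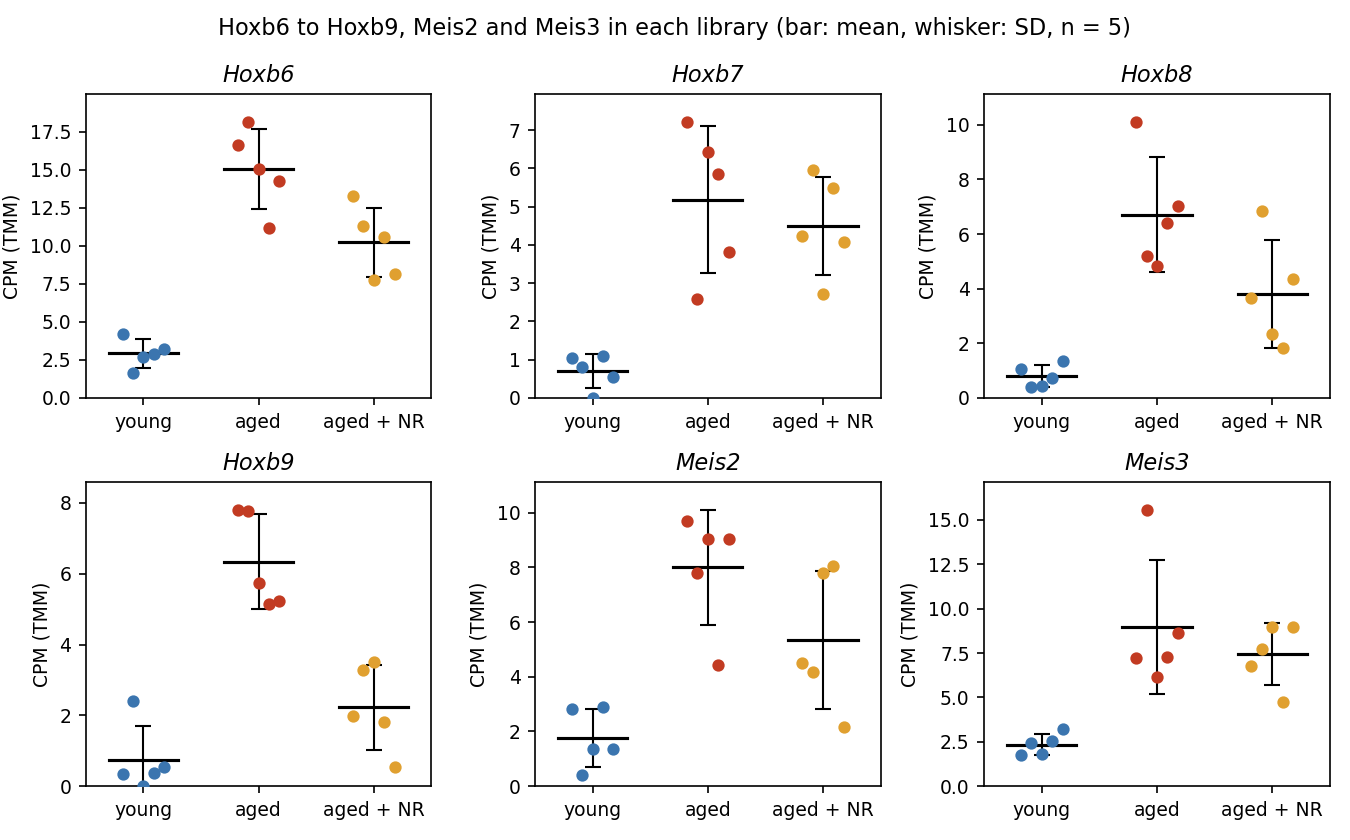
Expression in CPM (y axis, linear from 0) of Hoxb6, Hoxb7, Hoxb8, Hoxb9, Meis2 and Meis3 in each library, with 1 point per library, a bar at the mean and a whisker of 1 SD (n = 5). All aged libraries lie above all young libraries in each of the 6 panels, which follows from the choice of genes. Outside the members, 4 of 8 Hox genes and 2 of 7 TALE genes with a row were separated so, and these are the genes shown. Over all genes 6.86% were separated in that direction. For Hoxb7, Hoxb8 and Hoxb9 the rows rest on the aged groups, so their separation was in part fixed by the filter.

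The remaining 4 Hox genes, Hoxa2, Hoxa3, Hoxa6 and Hoxb2, passed in none of the comparisons. Hoxa6, between Hoxa5 and Hoxa7, gave -0.999 (95% interval -1.93 to -0.07, adjusted p 0.122 by edgeR) in aged against young, at means of 3.09 and 1.86 CPM. Hoxb2, next to Hoxb3, gave 0.94 (0.26 to 1.61, adjusted p 0.116) in aged + NR against young, at means of 3.88 CPM in young and 7.58 CPM in aged + NR. Of a list of 14 named noncoding RNAs of the Hox clusters, which leaves out the predicted transcripts there, 5 have a row (Hotairm1, Hoxaas2, Hoxaas3, Hoxb3os and Hoxb5os). By edgeR 0 of the 5 passed in each comparison, and 0, 1 and 0 had an unadjusted p under 0.05 in aged against young, aged + NR against aged and aged + NR against young, where 33.2%, 25.1% and 18% of all genes did. Hoxb5os, which runs antisense across Hoxb6 and Hoxb5, stood at 6.50 ± 3.13, 8.51 ± 2.15 and 7.17 ± 2.11 CPM in young, aged and aged + NR.

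**Figure D4:**
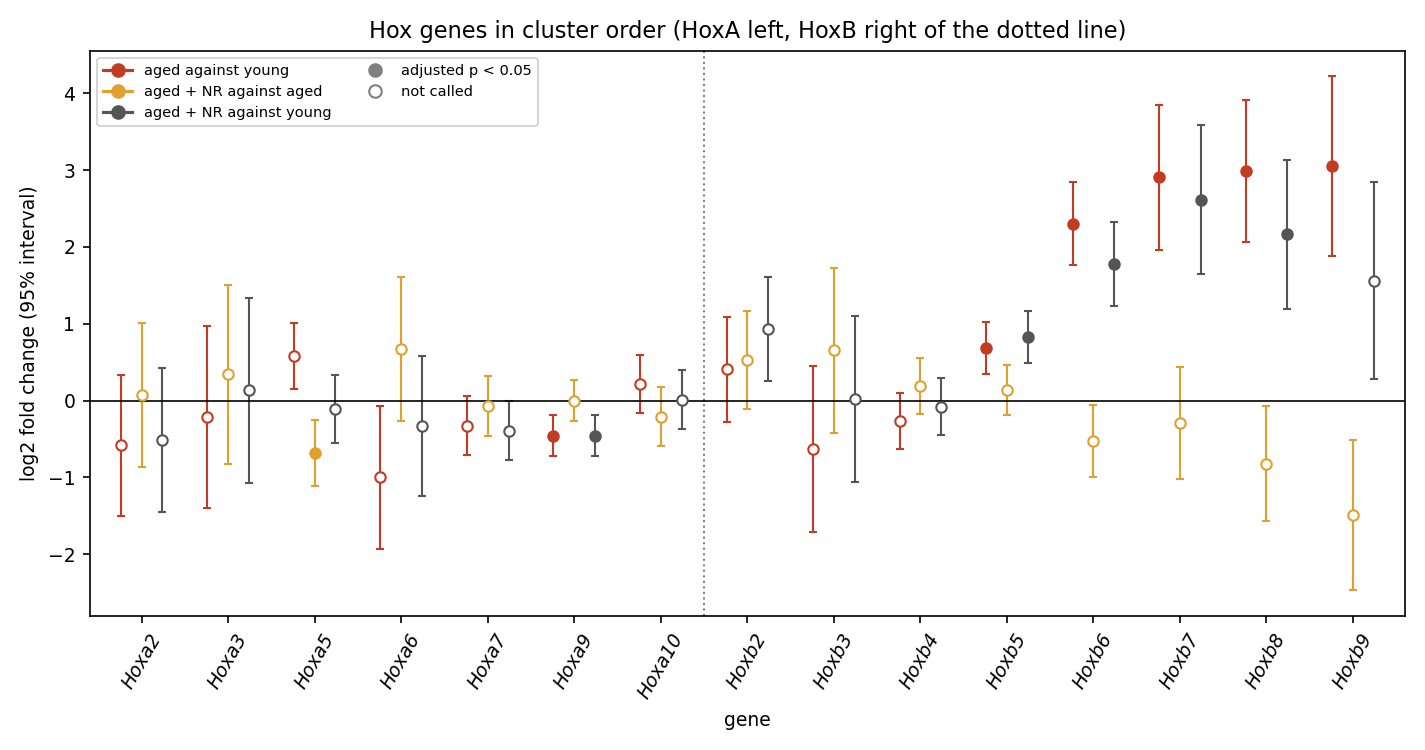
Log2 fold changes with 95% intervals (y axis) for the 15 Hox genes in numerical order along the x axis, HoxA to the left of the dotted line and HoxB to the right, in the 3 comparisons. Filled points have an adjusted p under 0.05: in aged against young these are Hoxa9 (-0.46), Hoxb5 (0.69) and Hoxb6 to Hoxb9 (2.30 to 3.05). The rows of Hoxb7, Hoxb8 and Hoxb9 rest on the aged groups.

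Of the cofactors, Meis1, which binds DNA with HOX and PBX proteins and is needed to keep HSC quiescent, passed in none of the comparisons. It stood at 531, 642, 519, 497 and 563 CPM in young (551 ± 56.3), 570, 514, 573, 643 and 655 in aged (591 ± 58.3) and 487, 584, 643, 601 and 587 in aged + NR (581 ± 57.4). The 3 ranges overlapped. Meis1 differences were 0.10 (95% interval -0.11 to 0.32), -0.03 (-0.25 to 0.19) and 0.08 (-0.14 to 0.29) on the log2 scale.

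Pbx3, the PBX partner of HOXA9 and MEIS1, was higher in both aged groups than in young. Young libraries held 15.8, 14.9, 17.5, 11.6 and 17.0 CPM (15.4 ± 2.33). Aged libraries held 23.6, 14.3, 25.9, 23.3 and 27.5 CPM (22.9 ± 5.14), and aged + NR libraries 22.03, 34.6, 28.4, 32.9 and 32.7 CPM (30.1 ± 5.06). All aged + NR libraries and 4 of 5 aged libraries were above the young range, and aged replicate 2, the shallowest library, was inside it. Pbx3 was 1.55-fold higher in aged than in young (log2 0.63, SE 0.18, adjusted p 0.0170 by edgeR) and 1.96-fold higher in aged + NR than in young (0.97, SE 0.18, adjusted p 0.00204). Aged + NR against aged gave 0.34, with an interval of -0.01 to 0.69 and an adjusted p of 0.213. The call in aged against young was lost without young replicate 4 (adjusted p 0.0514), without aged replicate 3 (0.0521) and with thinned counts (0.228), and that in aged + NR against young with thinned counts (0.0775).

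Of 11 TALE genes, 9 have a row, and 3 were higher (Meis2, Meis3 and Pbx3) and 2 lower (Pbx2 and Pbx4) in aged than in young, where 19.3% of all genes passed. Against young, 2 were higher in aged + NR (Meis3 and Pbx3, 4.47% of all genes), and between aged + NR and aged 0 passed by edgeR and 0 had an unadjusted p under 0.05 (25.1% of all genes). Meis2, a MEIS1 paralogue, held 2.81, 0.402, 1.35, 2.90 and 1.35 CPM in young, 9.68, 7.78, 9.04, 4.44 and 9.04 in aged and 4.52, 4.17, 7.78, 8.04 and 2.18 in aged + NR. Aged lay above young in every library, at a log2 change of 2.16 (SE 0.43, adjusted p 0.00170), and aged + NR against young gave 1.54 (adjusted p 0.0519). Meis3, a further paralogue, held 1.75, 2.41, 1.80, 2.54 and 3.24 CPM in young, 7.23, 15.6, 6.17, 7.29 and 8.64 in aged and 6.78, 7.75, 8.94, 4.75 and 8.99 in aged + NR. Both aged groups were above the young range, with Meis3 changes of 1.77 (SE 0.32, adjusted p 0.000706 by edgeR) and 1.63 (SE 0.32, adjusted p 0.00375). With thinned counts the latter was 0.83 (adjusted p 0.593).

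Pbx2 and Pbx4, PBX paralogues, changed in the other direction from Pbx3 with age. Pbx2 fell from 29.0 ± 8.36 CPM in young to 17.8 ± 2.62 in aged (log2 -0.73, SE 0.21, adjusted p 0.0212 by edgeR), with 21.3 ± 5.48 CPM in aged + NR. The Pbx2 call was lost without young replicate 4 or 5 or aged replicate 3 or 5, with adjusted p of 0.0535 to 0.0689, and without the 2 young libraries that held Y-linked transcripts (0.0639). Pbx4 fell from 22.3 ± 5.29 CPM to 12.8 ± 2.72 (log2 -0.84, SE 0.20, adjusted p 0.00583), with 16.4 ± 2.48 CPM in aged + NR, and was lost as a call only with thinned counts (0.0699). The aged + NR values of both genes lay between the other groups and differed from neither past the threshold. Pknox1 and Tgif1, TALE relatives, gave 0.01 (95% interval -0.23 to 0.26) and 0.05 (-0.45 to 0.56) in aged against young.

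**Figure D5:**
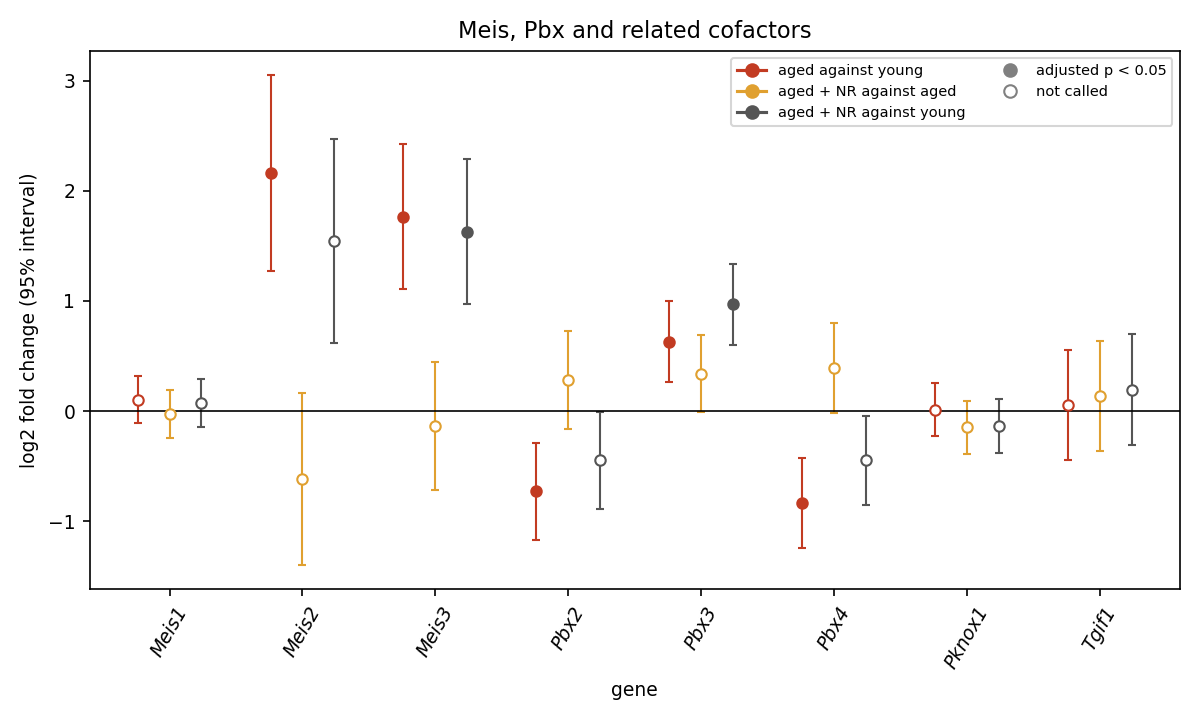
Log2 fold changes with 95% intervals (y axis) for 8 TALE genes (x axis) in the 3 comparisons, with filled points for an adjusted p under 0.05. In aged against young Meis2 (2.16), Meis3 (1.77) and Pbx3 (0.63) lie above 0 and Pbx2 (-0.73) and Pbx4 (-0.84) below it, and no point of aged + NR against aged is filled.

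Regulators that keep Hox genes active were followed through a list of 14 genes for MLL complex, DOT1L complex and related factors, of which 11 have a row. In aged against young 1 was higher and 3 were lower, where 19.3% of all genes passed, with a list median of -0.22. For aged + NR, 0 of 11 passed against aged and 0 against young by edgeR, and 3 had an unadjusted p under 0.05 in each, where 25.1% and 18% of all genes did. Mllt3, a reader of histone acylation that recruits DOT1L, was 289 ± 18.1 CPM in young, 409 ± 61.5 in aged and 327 ± 35.7 in aged + NR, a log2 change of 0.50 with age (SE 0.11, adjusted p 0.00384). Dot1l, the H3K79 methyltransferase, fell from 68.1 ± 6.46 to 43.9 ± 7.97 CPM with age (log2 -0.61, SE 0.13, adjusted p 0.00279). Kmt2a, which encodes the MLL1 histone methyltransferase, fell from 292 ± 74.1 to 208 ± 26.9 CPM (log2 -0.49, SE 0.15, adjusted p 0.0233), a call lost without young replicate 4 or 5 or aged replicate 3 or 5 (adjusted p 0.0519 to 0.0844) and without the 2 young libraries that held Y-linked transcripts (0.0958).

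Among 16 genes listed as targets of HOXA9 and MEIS1, all with a row, 2 were higher and 6 lower in aged than in young, where 19.3% of all genes passed, with a list median of -0.20. Between aged + NR and aged 0 passed by edgeR and 4 had an unadjusted p under 0.05 (25.1% of all genes), and in aged + NR against young 4 were lower (1.91% of all genes). Cd34, a surface sialomucin of progenitors, fell from 175 ± 29.7 CPM in young to 73.6 ± 4.44 in aged and stood at 78.5 ± 7.53 in aged + NR (log2 -1.26, adjusted p 3.1e-07, and -1.16, adjusted p 1.7e-06, against young). Flt3, the cytokine receptor of lymphoid-primed progenitors, fell from 14.5 ± 4.26 to 3.24 ± 1.29 CPM with age (log2 -2.03, adjusted p 0.000107) and was 5.46 ± 1.83 CPM in aged + NR. Id2, an inhibitor of basic helix-loop-helix factors, rose from 22.03 ± 13.4 to 62.7 ± 9.94 CPM (log2 1.53, adjusted p 0.000853) and was 36.9 ± 10.4 CPM in aged + NR. Cd34 and Flt3 are also markers of progenitors outside the HSC gate.

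The pattern over the 15 libraries most like that of Hoxa9, by the root mean square difference of centred log2 CPM among 9369 genes, was found for Ramp1 (0.133), with Gcnt2 (0.163) also among the nearest 3, against an SD of Hoxa9 itself of 0.283. For Meis1, whose SD was 0.141, the nearest of 9603 genes were Dph5 (0.0890), Rbm5 (0.0903) and Nfx1 (0.101). Ramp1, a receptor activity-modifying protein, gave -0.42 (adjusted p 0.0136 by edgeR) in aged against young and -0.53 (0.00803) in aged + NR against young. Gcnt2, a glycan-branching enzyme, gave -0.46 (0.0246) in aged against young and -0.42 (0.0980) in aged + NR against young. Ramp1 and Gcnt2 were picked for nearness to Hoxa9 over these same libraries, so their likeness to it follows from the choice.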

How the data were processed

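HSC (lineage-negative, Sca-1+, cKit+, CD150+, CD48-) were sorted from individual mice (20000 to 25000 cells each), and 3′-biased libraries with a 10 bp molecular identifier were made. The authors aligned reads to GRCm38 with STAR 2.4.2a, removed duplicated identifiers and counted reads over exons with featureCounts. The deposited values are raw counts of 16154 genes, already filtered on low counts by the authors. Counts were tested here with edgeR 4.0.16 (R 4.3.3) by the quasi-likelihood test with TMM scaling, 1 fit over 15 libraries with group as the only term. The study used the likelihood ratio test, an alternative here. The script was checked on simulated counts. Alternatives were DESeq2 1.42.0, limma 3.58.1 (voom), other scalings, filters, thinning, a replicate block and leaving out each of 15 libraries. P-values weigh group differences against the spread between individual mice, estimated over all 3 groups with information shared across genes. Intervals for low counts cover counting error and that spread as modelled. Positions came from the GENCODE annotation of GRCm38.

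The members and gene lists were chosen with earlier results of these data known. Named genes were the 9 members, every other Hox and TALE gene with a row, and from each other list up to 3 genes that passed in at least 1 comparison, by smallest adjusted p. For Hoxa9 and Meis1 the 3 genes of nearest pattern were added, among genes whose mean reached 10 CPM. Values of 2 genes that this rule names are not reported here.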

Additional observations from a re-analysis of the deposited data

Results flagged for a closer look

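Within groups of 5 libraries, 87 combinations of gene and group were examined for a single library far from the others (the gap to the nearest library divided by the range of the group, above 0.71), a limit that chance passes in about 1 of 20 groups, and 6 passed. Among the members this was Hoxb3, where aged replicate 4 stood at 3.20 CPM against 1.69 CPM for the next library (ratio 0.793, 18 counts). Among the other Hox genes, aged + NR replicate 2 was high for Hoxa2 (7.45 against 3.27 CPM, ratio 0.818). Young replicate 2 was high for Hoxb9 (2.41 against 0.539 CPM, ratio 0.776, on 6 counts). Aged replicate 2, the shallowest library, was high for Hoxa3 (3.89 against 1.61 CPM, ratio 0.750, on 3 counts), for Hoxa6 (3.89 against 1.86 CPM, ratio 0.719, on 3 counts) and for the cofactor gene Meis3 (15.6 against 8.64 CPM, ratio 0.738, on 12 counts).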

How the results depend on the processing

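Over 26 alternative analyses no named value changed sign among those that passed the threshold. Scaling by library totals moved the median of all genes in aged against young from -0.03 to -0.16 and in aged + NR against aged from 0.02 to 0.16. In aged + NR against aged, the number of members that passed was 1 and became 0 with DESeq2 size factors, library totals, a minimum of 10 counts per library, removal of predicted genes, or without the 2 young libraries with Y-linked transcripts. The number of Hox genes, 1, became 0 under those same settings and 2 with the likelihood ratio test, DESeq2, limma-voom or only the 2 groups compared. With the minimum of 10 counts (6 Hox genes left), 2 Hox genes passed in aged against young and 2 in aged + NR against young, where limma-voom gave 3. Thinning every library to 764119 counts left 1 member in aged against young, and 0 members and 1 Hox gene in aged + NR against young. It left 1523, 409 and 417 genes in aged against young, aged + NR against aged and aged + NR against young, where 3120, 1303 and 722 had passed. In aged + NR against aged, at least 10 counts left 783 genes. Without the 2 Y-linked young libraries 1862 genes passed in aged against young.

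Leaving out 1 library gave 1953 to 3533 genes in aged against young, 422 to 1535 in aged + NR against aged and 452 to 922 in aged + NR against young, with the lowest values without aged replicate 3, aged replicate 3 and aged + NR replicate 4. It gave 0 to 1 members and 0 to 2 Hox genes in aged + NR against aged, 2 to 4 members and 6 to 7 Hox genes in aged against young, and 2 to 3 members and 4 to 5 Hox genes in aged + NR against young. The TALE, activator and target lists gave 3 to 5, 2 to 6 and 6 to 9 genes in aged against young. With thinned counts Hoxb7, Meis2, Pbx4, Kmt2a and Dot1l lost their age calls (adjusted p 0.0521 to 0.0787), and Hoxb7, Hoxb8 and Meis3 theirs in aged + NR against young (0.149 to 0.593). The cause of these shifts was not tested.

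Libraries that share a replicate number did not deviate together (correlation of deviations -0.252 to 0.137, mean 0.00666, over 15 pairs), so no sign of pairing by number was seen. A small shared effect would not show in this check. With a replicate block, 2836, 1048 and 589 genes, 3, 0 and 2 members, and 6, 1 and 4 Hox genes passed in aged against young, aged + NR against aged and aged + NR against young. Depth limits the genes at a few CPM, since 3 counts are 0.254 to 3.89 CPM over the libraries.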
